A study of Mus musculus with 15 samples.

Results

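Gusb encodes beta-glucuronidase, a hydrolase of the lysosome, and is 1 of 112 genes that the arrays of this study name by a RefSeq identifier with a current mouse symbol. It was chosen by its measured processed signal across wild type (WT) and APP/PS1 mice, so its levels are given below as a description and without a test. A single probe (CUST_3_PI419532418, annotated NM_010368.1 in the scanner files) reads it, and this probe was printed 20 times on every array. The probe belongs to a set of 15 reference genes that were each printed 20 times.

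Beta-glucuronidase removes glucuronic acid from the ends of glycosaminoglycan chains such as heparan, dermatan and chondroitin sulfate, and works in sequence with other lysosomal hydrolases. The enzyme is made in the endoplasmic reticulum, tagged with mannose 6-phosphate and sorted to the lysosome by receptors for that tag. Its loss causes mucopolysaccharidosis with storage of undegraded chains, in the brain as elsewhere. Because the gene is transcribed in most cell types, it is also used as an internal reference in quantitative PCR.

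Brain RNA was read with the dye Cy3 on one-colour Agilent arrays that carry probes for mRNAs and long noncoding RNAs. The groups used were WT mice and APP/PS1 mice, a transgenic model of Alzheimer's disease, at 1, 3, 6 and 9 months of age, with strain background C57BL in every group. WT mice have no age in the sample labels although the design text describes age-matched controls, and so genotype and age cannot be told apart against WT. They give 1 male and 2 females per group where that text gives males, and they name neither the promoters of the transgenes nor whether brains were pooled. Scanner data of 14 arrays were analysed, 2 of WT and 3 of each age. The scanner data of WT replicate 3 were not analysed here.

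Replicates 2 and 3 at 1, 3 and 6 months were near-identical arrays: deviations over the copies of the negative probes correlated at 0.80 to 0.825 within these pairs, against at most 0.24 in the 88 other pairs. Each pair was averaged and counted as 1 sample, which left 11 samples: 2 of WT, 2 each at 1, 3 and 6 months, and 3 at 9 months. The deviations of the 20 Gusb copies from their array mean showed the same pairing, with r of 0.67, 0.78 and 0.91 in these pairs and a median of 0.12 over the others, of which the highest was 0.641. The 9-month arrays were scanned at 354 V and no other array was, so scan setting and age cannot be told apart at 9 months. Spot intensities had a 75th percentile between 384 and 566 units. No source states whether replicates came from separate mice. Of the lists of lysosomal genes (63 genes), microglial markers (19) and markers of neurons, astrocytes, oligodendrocytes, vessels, choroid plexus and blood, 0 genes had a named probe. The labelled tissue and the cell types that carry Gusb could therefore not be checked. In RNA of whole tissue, fewer cells of a type and less RNA per cell cannot be told apart.

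Gusb was measured well above the array background everywhere. All 20 copies were well above background and none was saturated on each of the 14 arrays. The median raw spot signal was 40.6 to 102 times the median local background. The mean processed intensity, which is background-subtracted but not scaled between arrays, was 1479.7 and 1559.7 units on the WT arrays. It was 1622, 1632 and 1611 units at 1 month (replicates 1, 2 and 3). At 3 months it was 1147, 1196 and 1188 units, the lowest of the study. At 6 months it was 1491, 1706 and 1699 units. The 9-month arrays gave 2838, 2929.6 and 2144 units, so even the dimmest of them was above every other array.

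Arrays differed in general brightness, and levels were therefore expressed as log2 of the processed signal relative to the 75th percentile of the same array. On this scale the WT samples lay at 1.87 and 1.96. At 1 month the samples lay at 1.78 and 1.72, at 3 months at 1.59 and 1.56, and at 6 months at 1.74 and 1.59, where the second value of each age is the averaged pair. At 9 months the samples lay at 2.53, 2.48 and 2.03. The samples at 1, 3 and 6 months were all below both WT samples, and those at 9 months were all above them. Replicate 3 at 9 months was closer to both WT samples than to the other 9-month samples.

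**Figure D1:**
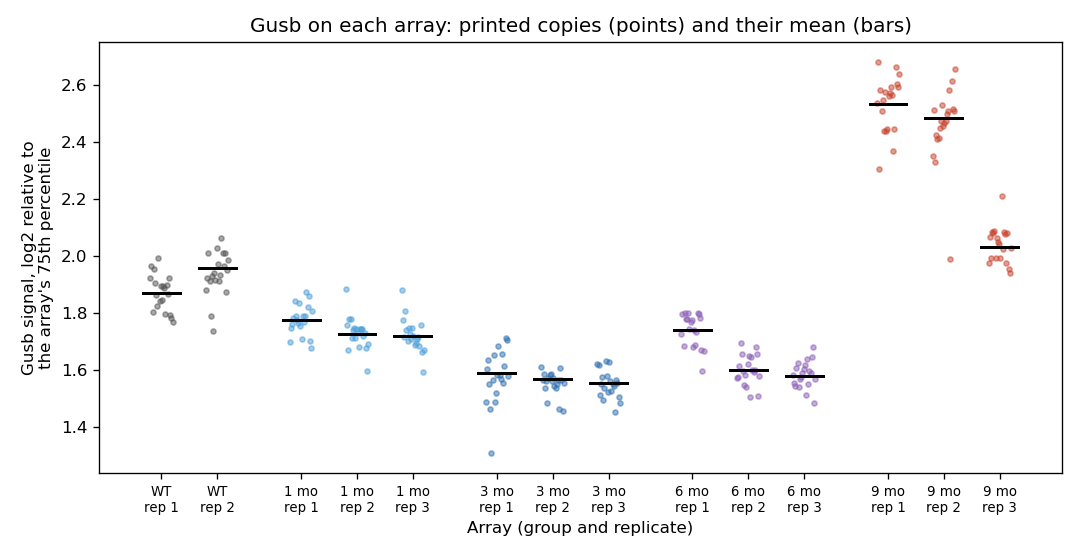
Gusb signal on each of the 14 arrays, as log2 relative to the array's 75th percentile; points are the 20 printed copies and bars the mean over copies without those marked as outliers. The 3-month arrays and replicates 2 and 3 at 6 months are lowest. Of the 9-month arrays replicates 1 and 2 stand highest while replicate 3 lies just above WT.

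From low to high, the groups were ordered 3 months at 1.58 ± 0.02 (SD, n = 2), 6 months at 1.67 ± 0.11 (SD, n = 2), 1 month at 1.75 ± 0.04 (SD, n = 2), WT at 1.91 ± 0.06 (SD, n = 2) and 9 months at 2.35 ± 0.28 (SD, n = 3). The ranges at 6 months and 1 month overlapped. The higher 3-month sample and the lower 6-month sample differed by 0.00014, so these neighbours do not differ beyond their spread. The gap between the ranges of 1 month and WT was 0.09, and that between WT and 9 months was 0.08, which is small beside the 9-month range of 0.50. Neither the order of the middle groups nor the lowest place is thus fixed by these samples. The groups with the lowest and highest means, 3 and 9 months, lay 0.44 apart at their nearest samples.

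Whether the transgenic brain differed from WT was addressed at each age against the same WT samples. At 1 month Gusb lay 0.16 (SE 0.16, limma fit over all samples) below WT on the log2 scale, a 1.12-fold lower level. At 3 months it lay 0.34 (SE 0.16) below WT, or 1.26-fold lower. At 6 months it lay 0.25 (SE 0.16) below WT, or 1.19-fold lower. The SE shares the wide spread at 9 months, and in a fit without the 9-month samples it was 0.09 for each of these 3 differences. Limma draws the variance of a gene toward that of all features, and the pooled SD of Gusb without 9 months was 0.06. The samples did not overlap with WT at any of these ages. That is common on these arrays: among 48294 features the samples of the groups did not overlap for 56.6% at 1 month, 57.8% at 3 months and 58.9% at 6 months, and nothing is read from it.

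These lower values depend on how the arrays are scaled. The 75th percentile was 0.25 higher at 1 month and 0.31 higher at 6 months than in WT (log2), and 0.04 lower at 3 months. Without scaling, Gusb was 0.085 above WT at 1 month and 0.058 above WT at 6 months, while at 3 months it was -0.38. The position below WT at 3 months was kept in all 18 alternatives that were run for it, from -0.41 to -0.25. At 1 and 6 months the sign was kept in 15 and 16 of 18 alternatives. Of these, sex as a covariate could not move the value at 1, 3 or 6 months. Keeping 1 array of each near-identical pair and keeping the shared scan setting left the same arrays, so they are not separate checks.

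At 9 months Gusb lay 0.44 (SE 0.15) above WT on the log2 scale, a 1.35-fold higher level, with 3 of 3 samples above both WT samples. The SE rests on the limma variance, which is shared by all groups and drawn toward that of all features. The pooled SD of Gusb over all groups was 0.17, narrower than that within WT and 9 months alone (SD 0.23). Samples did not overlap for 60.8% of all features in this comparison. Without scaling the difference was 0.78. In the 18 alternatives it ran from 0.34 to 0.78, above 0 in each, though some of them could not move it. The lowest value came from leaving out replicate 1 at 9 months, and without replicate 3 at 9 months the difference was 0.59. The median difference over all features was 0.05. The other features give the size a background: 37.3% of them differed from WT by more than Gusb did at 9 months, and 38.1% did at 3 months.

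The change with age within APP/PS1 mice was read from consecutive ages. From 1 to 3 months Gusb was lower by 0.18 (log2 difference -0.18, SE 0.16), and samples of the groups did not overlap, as for 60.0% of features. From 3 to 6 months the difference was 0.09 (SE 0.16), with ranges that all but touch, and 51.7% of features did not overlap. In a fit without the 9-month samples the SE of each of these differences was 0.09. From 6 to 9 months Gusb was higher by 0.68 (SE 0.15), or 1.61-fold, and the nearest samples were 0.29 apart. For 51.4% of features samples at 6 and 9 months did not overlap, and 14.8% of features differed by more than Gusb. Scaled to the median of the other reference genes described below, this difference was 0.24. That of 6 minus 3 months was 0.43 without scaling, 0.58 on the same median and 0.01 without replicate 1 at 6 months, and that of 3 minus 1 months was -0.46 without scaling and -0.56 on that median. Against 3 months, the lowest group, the 9-month level was 1.71-fold higher (log2 difference 0.77, SE 0.15). The SD within 6 and 9 months alone was 0.23, as within 3 and 9 months, above the pooled SD of 0.17 over all groups.

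The 20 copies of the probe, spread over the array, give the technical precision behind these values. The SD between copies on an array ran from 0.02 to 0.10 on the log2 scale after copies marked as outliers (0 to 3 per array) were left out. Copies share the RNA of their array, so they do not replicate a group. Against WT, 20 of 20 copies were lower at 1, 3 and 6 months and 20 of 20 were higher at 9 months. Read from single copies, the 9-month difference ran from 0.22 to 0.56, the 3-month difference from -0.50 to -0.20, the 6-month difference from -0.32 to -0.10 and the 1-month difference from -0.23 to -0.02. From 3 to 6 months 19 copies were higher and 1 was lower. The pattern of group means was thus not carried by a few spots.

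**Figure D2:**
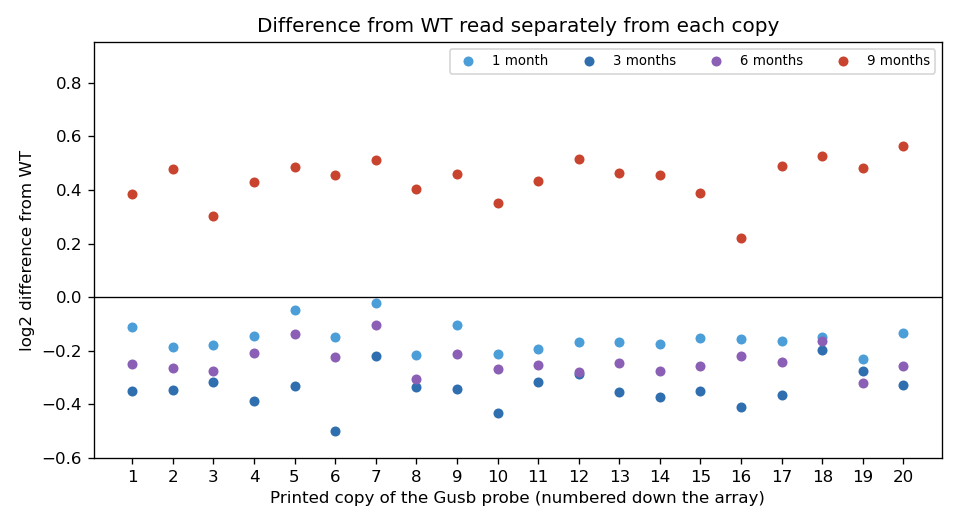
Log2 difference of Gusb from WT (vertical axis) read separately from each of the 20 printed copies (horizontal axis, numbered down the array), by age. The 9-month points lie between 0.22 and 0.56, and those of the other ages lie below 0, with 3 months mostly lowest.

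The 9-month samples were spread more widely than the samples of any other group. Replicate 3 lay 0.48 below the mean of the other 9-month samples and 0.45 below the nearer of them. Gaps of that size set this sample below both others for 1.45% of features and above both for 3.62%. The first 9-month sample lay below both others by as much for 7.99% of features. The Gusb range of 0.50 at 9 months was wider than that of each of the 14 other reference genes, which ran from 0.02 to 0.20 (log2). In WT, where the Gusb range was 0.08, 0 of the 14 had a wider one either. It was 0.05 at 1 month, 0.03 at 3 months and 0.15 at 6 months, and in WT and at these ages it was below the median range of all features. The male sample of a group lay 0.08 below the female sample in WT, and above the female mean at each APP/PS1 age, by 0.05 at 1 month, 0.03 at 3 months, 0.15 at 6 months and 0.28 at 9 months. With sex as labelled as a covariate, the 9-month difference from WT was 0.45.

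The other 14 reference genes show how the common internal standards of expression studies behaved on the same arrays. Of these 14, the limma test called 0 higher and 2 lower at 1 month, 0 higher and 2 lower at 3 months, 0 higher and 4 lower at 6 months, and 1 higher and 3 lower at 9 months, at an adjusted p under 0.05. Over all features 8.55%, 10.2%, 21.0% and 30.9% were called at these ages. The median log2 difference of the 14 genes from WT was -0.17 at 1 month, -0.02 at 3 months, -0.06 at 6 months and -0.11 at 9 months. Gusb at -0.16 was thus near their median at 1 month under this scaling. With quantile normalization Gusb was at -0.13 and their median at -0.06. At 9 months 12 of the 14 genes were at negative values, from -0.60 for Nono, a paraspeckle protein gene, to -0.01 for Ppia, a prolyl isomerase gene. The positive values were 0.54 for B2m, the MHC class I light chain gene, and 0.13 for Rpl13a, a ribosomal protein gene. Gusb, at 0.44, lay between these. The signs of the 14 genes follow the scaling: without scaling 13 of them were positive at 9 months, and with normexp 6 were positive. Under the reported processing 1 of the 14 genes lay below Gusb at 3 months and 13 did at 9 months. Scaling by a single value per array cannot move this place, and quantile normalization and normexp, which can, gave the same counts at these ages.

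**Figure D3:**
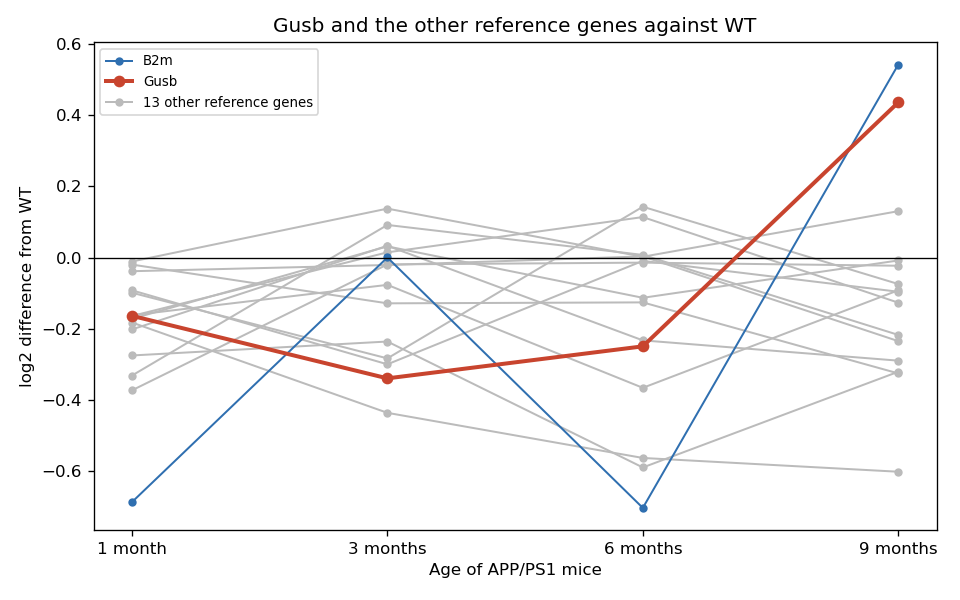
Log2 difference from WT (vertical axis) at each age of APP/PS1 mice for the 15 genes printed 20 times per array, with Gusb in red, B2m in blue and the 13 others in grey. Gusb lies among the others at 1 and 6 months, near the lower edge at 3 months and beside B2m above the rest at 9 months.

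A ratio of Gusb to another gene on the same array does not depend on scaling by a single value per array. Gusb was therefore set against each of the 14 genes in turn. Each such value is the Gusb difference less that of the other gene. The counts thus restate the place of Gusb among the 14. All share the same Gusb values and are no separate support. At 9 months Gusb was higher than in WT relative to 13 of the 14, with a median of 0.55 and a maximum of 1.04 relative to Nono. Relative to B2m it was -0.11. At 3 months Gusb was lower than in WT relative to 13 of the 14, with a median of -0.32. The exception was Nono, at 0.10. At 6 months Gusb was lower relative to 10 genes and higher relative to Tfrc, the transferrin receptor, Actb, cytoskeletal actin, B2m and Nono. At 1 month the ratios were split, 8 higher and 6 lower, with a median of 0.0044. This split moved with other normalizations: Gusb was higher relative to 3 genes with quantile normalization and to 6 with normexp. At 6 months those counts were 4 and 5. A ratio shows that genes changed unequally and not which of them changed.

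The choice of standard therefore decided the direction at 1 and 6 months. With the mean of the 14 genes as standard, the Gusb difference from WT was 0.037 at 1 month, -0.25 at 3 months, -0.075 at 6 months and 0.56 at 9 months. With their median it was 0.26 at 1 month and 0.28 at 6 months, and -0.30 and 0.52 at 3 and 9 months. On either standard Gusb was lowest at 3 months and highest at 9 months.

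**Figure D4:**
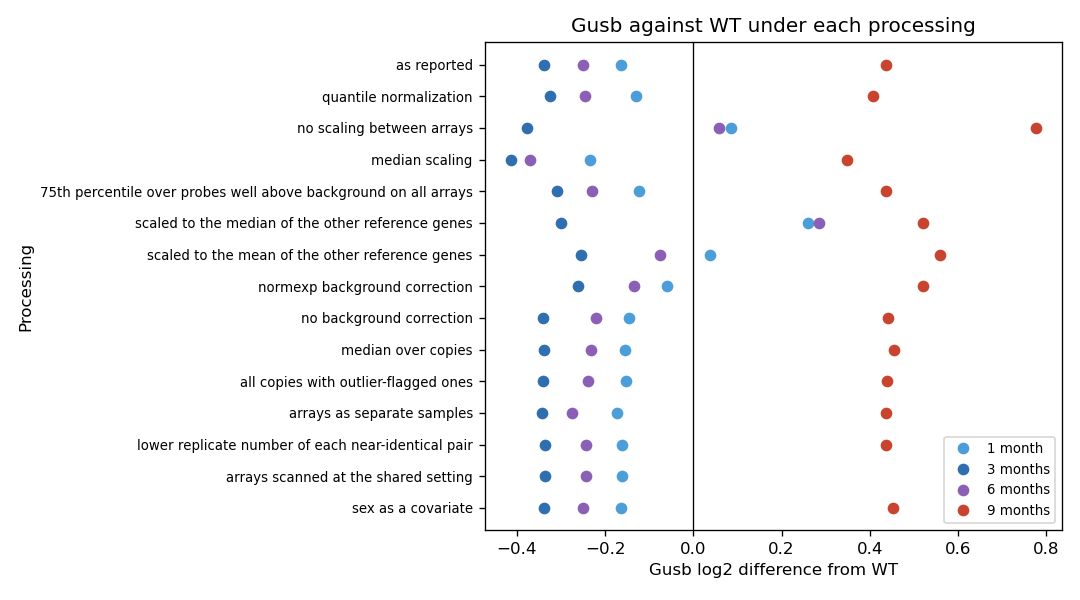
Gusb log2 difference from WT (horizontal axis) under each way of processing the arrays (vertical axis), with a point for each age. The 9-month points stay between 0.35 and 0.78 and the 3-month points between -0.41 and -0.25, while those of 1 and 6 months lie on either side of 0.

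Set against the other reference genes for stability, Gusb was among the more variable. Its SD over the 11 samples was 0.34 on the log2 scale, and of the 14 others B2m had a wider one, at 0.52. The narrowest were Rpl13a at 0.08 and Ppia at 0.08. Without the 9-month samples the SD of Gusb was 0.14, and 8 of the 14 genes varied more.

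Features whose levels followed Gusb most closely were found by Pearson r over the 11 samples, which share a set of arrays and scaling, and of which the 3 at 9 months stand apart. Among 84 other features with a symbol the highest r was 0.911 for Ccl28, a mucosal chemokine gene. It was followed by Ccl21c (0.873) and Ccl21b (0.871), chemokine genes that act through CCR7 and are near-identical copies, then Zfp131 (0.87), a zinc finger protein gene, and the predicted gene Gm13304 (0.865). Without the 9-month samples the r of Ccl28 was 0.828 over 8 samples, against 0.425 for Ccl21c, 0.299 for Ccl21b, 0.463 for Zfp131 and 0.318 for Gm13304. At 9 months Ccl28, Ccl21c and Ccl21b lay 3.20, 3.90 and 4.46 above WT on the log2 scale and Gm13304 lay 4.66 above it, more than Gusb, while Zfp131 lay 0.23 above WT, less than Gusb. Ccl28 was dim outside 9 months, at -2.575 in WT and a further 1.57 lower at 3 months. A probe had to be well above background on only 3 arrays, which the 9-month arrays alone could meet. How far the difference and the r of Ccl28 rest on values near background was not tested. The group means of Gm13304 and Ccl21b were close, at -0.34 and -0.25 in WT and 4.32 and 4.22 at 9 months. Whether their probes read separate transcripts was not tested. The lowest r were those of Spry3 (-0.796), an inhibitor of growth factor signalling, and of the pheromone receptor genes Vmn1r241 (-0.727) and Vmn1r259 (-0.69). Both receptor genes were dim as well, at -2.42 and -2.975 in WT. Of the probes with no symbol, ASMM9PARTA038723 (0.969), ASMM9PARTA021846 (0.964) and ASMM9PARTA013666 (0.961) were highest. In all, 168 of 48293 features, or 0.348%, had an r above 0.9, and 0.499% did without the 9-month samples.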

How the data were processed

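Brain RNA of WT and APP/PS1 mice was measured on one-colour arrays. The deposited spot intensities came from the scanner software Agilent Feature Extraction, version 10.7.1.1 per the submitters' processing notes. The processed signal was used, which is background-subtracted within an array and not scaled between arrays. The genome build is not given in the sources used here, and no probe sequence or coordinates were used. The deposited series table held the local background mean of each spot (62513 of 62513 rows within 0.001 in each of 14 columns, medians 27.9 to 32.6), so it was not used for expression and its direction does not apply.

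Control spots and 1200 spots of 20 negative probes were left out. The log2 processed signal was expressed relative to each array's 75th percentile, and copies were averaged without those marked as outliers. Another 134 single-spot probes marked non-uniform were left out. A probe had to be well above background on at least 3 arrays, and of several probes of a gene the brightest was used (48294 features). Arrays of a group whose negative-probe deviations correlated above 0.5 were averaged. One limma 3.58.1 fit (R 4.3.3) held all 5 groups, with Benjamini-Hochberg adjustment over all features, and was tested on simulated data. The number of samples limits the precision. The genes named were Gusb, the other reference genes, listed lysosomal genes (0 had a named probe), and the features with a symbol (5 highest and 3 lowest) or without one (3 highest) by r with Gusb. The member and lists were chosen with earlier results of these data known.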

Additional observations from a re-analysis of the deposited data

Results flagged for a closer look

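The Gusb samples at 9 months lay above both WT samples and those at 1, 3 and 6 months below both, so that the effect against WT ran in opposite directions. The WT samples cancel in a difference between effects, which is therefore the difference between the ages. It was 0.60 for 9 against 1 month, 0.77 for 9 against 3 months and 0.68 for 9 against 6 months on the log2 scale. Without scaling, and scaled to the median of the other reference genes, the values at 1 and 6 months were above 0 as at 9 months, so opposite signs held across the alternatives run for 3 against 9 months alone. These differences were not tested, the effects share the WT samples, and scan setting and age cannot be told apart at 9 months.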

How the results depend on the processing

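Of the 7 Gusb differences, those of 3 and 9 months from WT and those between consecutive ages kept their sign in each of 18 alternatives. The differences at 1 and 6 months kept it in 15 and 16 of 18. Some alternatives could not move a value. Separate arrays, or 1 array of each near-identical pair, left 9 months minus WT at 0.44, since neither group held a pair. Sex as a covariate left the differences among WT, 1, 3 and 6 months as they were. Without scaling, the values from WT were 0.085 at 1 month, 0.058 at 6 months and 0.78 at 9 months, with -0.46 for 3 minus 1 months and 0.43 for 6 minus 3 months. With median scaling they were -0.23, -0.41 and -0.37 at 1, 3 and 6 months. With normexp on the median spot signal (the files hold no mean spot signal) they were -0.059, -0.26 and -0.13 at these ages. Scaled to the median of the other reference genes, they were 0.26 at 1 month and 0.28 at 6 months, with -0.56 for 3 minus 1, 0.58 for 6 minus 3 and 0.24 for 9 minus 6 months. Scaled to their mean, an alternative chosen after seeing the data, they were 0.037, -0.25 and -0.075 at 1, 3 and 6 months, with -0.29 for 3 minus 1 and 0.18 for 6 minus 3 months. The fit without the 9-month samples, the fit with sex as a covariate (0.45 at 9 months from WT and 0.70 for 9 minus 6 months), the ratios to single reference genes and the r without those samples were added likewise. The cause of these shifts was not tested.

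Leaving out 1 sample at a time gave -0.21 to -0.12 at 1 month, -0.38 to -0.30 at 3 months, -0.32 to -0.17 at 6 months and 0.34 to 0.59 at 9 months from WT. It gave -0.20 to -0.15 for 3 minus 1 months and 0.59 to 0.84 for 9 minus 6 months. The difference of 6 minus 3 months was 0.01 without replicate 1 at 6 months and 0.17 without the averaged pair at 6 months. The arrays of the shared scan setting could not be used for 9 months. For the other groups they were the arrays kept when 1 of each near-identical pair was used, with the same values. The share of features called at 1 and 3 months was 4.80% and 6.07% with no filter on dim probes and 22.0% and 21.6% with the 14 arrays as separate samples. At 3 months it was 4.64% with normexp, and at 6 months 34.9% with separate arrays. No paired analysis was possible because every title carries the same replicate number, and the numbers used here follow accession order and pair no samples.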
